A study of Mus musculus with 2 samples.

Results

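The cytosolic ribosome is built from a set of ribosomal proteins (Rpl in the large subunit, Rps in the small one), and the genes for these proteins are described here in leukaemic cells of 2 metabolic states. The members were the protein-coding genes with an official mouse symbol of Rpl or Rps, a number and at most 1 letter, together with Rplp0, Rplp1, Rplp2, Rpsa and Rps3a1, the official symbol of the gene known as Rps3a. Pseudogenes and S6 kinases were left out, and probes were assigned through the RefSeq accession that the array file gives. This gave 82 genes, 50 of the large and 32 of the small subunit, out of 20659 named genes with a probe. The SoNar-high and SoNar-low groups were leukaemic cells of mouse B-ALL (B-cell acute lymphoblastic leukaemia) from the bone marrow of C57BL mice of 8 weeks, sorted by the fluorescence ratio of SoNar, a genetically encoded sensor that follows the balance of NADH and NAD+ in the cytosol. Each group was measured as total RNA on 1 Agilent 1-colour (Cy3) array. The sample titles call the samples N-myc-high and N-myc-low, and the labels give no transgene, leukaemia model or number of mice behind them.

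A ribosome carries 1 copy of nearly every ribosomal protein, and cells keep the amounts balanced by making the messages together and by degrading protein that finds no ribosomal RNA partner. Most of these messages begin with a C and a run of pyrimidines, the terminal oligopyrimidine (TOP) motif, through which mTORC1 and LARP1 control their translation. Ribosomal protein genes are among the most abundantly expressed in growing cells and respond to MYC. Changes in ribosomal protein genes are known from blood disease, in Diamond-Blackfan anaemia and in T-cell leukaemia.

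No difference given here has a replicate check or a test, since only 1 array stood for each group, and their number limits the precision. Scan session differed between them as well, so session and group cannot be told apart. The arrays carried 43020 non-control spots, of which 72.9% in SoNar-high and 44.8% in SoNar-low were well above background, and 0 were saturated. Of 18 early B cell genes 14 were detected in SoNar-high and 13 in SoNar-low, among them Cd79b (signals of 14377 and 12625) and Vpreb3 (9345 and 12061), while Igll1, Rag1, Rag2 and Il7r were well above background in neither. Values are log2 differences, SoNar-high minus SoNar-low, after each array was set to its own 75th percentile, and the median over all 10517 genes measured on both arrays was -0.17. A value of 1 is a 2-fold difference. Repeat spots of 1 probe give only the error between spots of the same 2 arrays, where the SD of the log2 difference had a median of 0.15 over 193 probes. The error between arrays could not be measured with 1 array per group.

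Ribosomal protein transcripts were abundant in the SoNar-high and SoNar-low cells, and how close to equal they were depended on the scaling. The median difference of the members was -0.05 with the 75th percentile and -0.66 with median scaling, where the median of all genes was -0.78. With median scaling 13 of the 79 measured members and 3306 of all 10517 genes were at least 2-fold lower. Of the 82 genes 79 were measured on both arrays, and 72 of these lay at or above the 90th percentile of all genes by mean level. Their processed signal ran from 1238 (Rpl21) to 92885 (Rplp2) in SoNar-high and from 1291 (Rpl21) to 108298 (Rplp2) in SoNar-low. The median log2 difference of the 79 genes was -0.05, with quartiles of -0.27 and 0.18, against -0.17 with quartiles of -0.47 and 0.20 for all genes. In 33 members the difference was above 0 and in 46 below, and in 25 it was smaller than the SD between repeat spots. In bulk RNA, fewer cells of a kind and less RNA per cell cannot be told apart.

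At least 2-fold higher in SoNar-high were 2 members, Rpl7a and Rps3a1, which is 2.53% of 79, where 4.87% of all measured genes passed that line. At least 2-fold lower were 0 members, where 1.68% of all genes were. Among the 980 other genes at that level (90th percentile and above), the shares were 0.612% for higher and 0.816% for lower, with a median of -0.35. The background thus differed with level. The members' median of -0.05 lay above the medians of both backgrounds. Beyond an absolute log2 difference of 0.5 there were 7 higher and 6 lower members. The share of all genes beyond that line was not counted, so these counts describe the members alone. The quartiles were -0.47 and 0.20 for all genes and -0.57 and -0.10 for the 980 other genes.

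**Figure D1:**
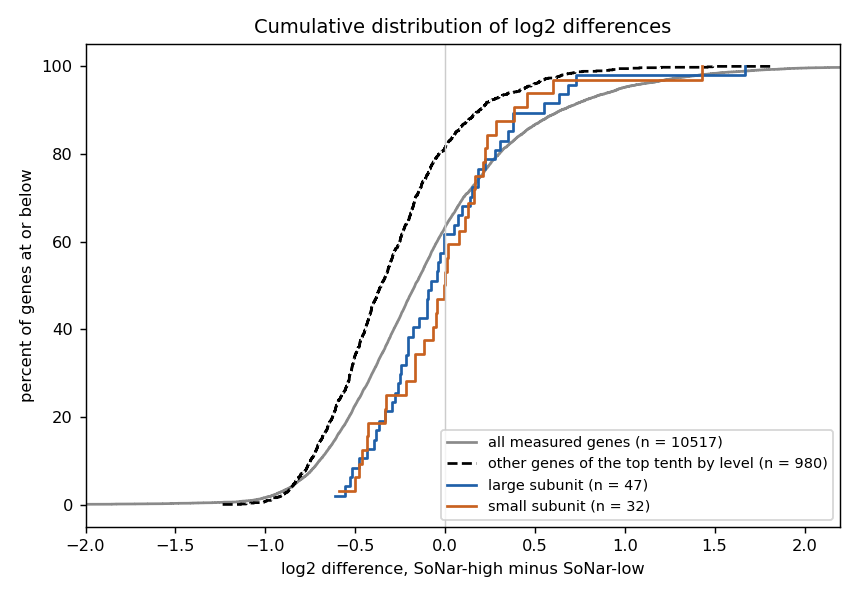
The percent of genes (vertical axis) at or below each log2 difference, SoNar-high minus SoNar-low (horizontal axis), is drawn for 47 large subunit genes, 32 small subunit genes, all 10517 measured genes and the 980 other genes at or above the 90th percentile of level. The 2 subunit curves run close together and, at their medians, to the right of the curve of those 980 genes, whose median is -0.35.

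Genes that mark other cell types differed between the same samples. Their detection counts stand beside 72.9% of all spots well above background in SoNar-high and 44.8% in SoNar-low. The lowest detected signal was 19.7 on the SoNar-high and 46.4 on the SoNar-low array. Of 13 neutrophil genes, 13 were detected in SoNar-high and 11 in SoNar-low, and the 11 found in both had a median of 0.70. Of 10 erythroid genes with a probe 9 and 4 were detected, and 4 found in both had a median of 1.07. Of 9 genes of T and natural killer cells 7 and 4 were detected, Cd3d and Gzmb in neither, and 4 found in both had a median of 1.17. Of 6 monocyte genes 4 and 2 were detected, Ccr2 among those in neither, with values of 0.37 and 1.25 for the 2 genes found in both. The 13 early B cell genes found in both had a median of -0.26. Over the genes found in both, log2 of the summed processed signal was 14.7 and 14.3 (SoNar-high first) for neutrophil, 13.9 and 14.5 for erythroid, 10.6 and 10.8 for T and natural killer, 9.11 and 7.95 for monocyte and 15.9 and 16.0 for early B cell genes. The brightest measured gene was Hemgn in the erythroid list (14153 and 22791, -0.83). In the T and natural killer list it was Lck (858 and 1490, -0.94). The other measured genes of these lists were all higher in SoNar-high, so the sums and the medians differ in direction. The part of other cells in the ribosomal protein values was not tested.

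Values of the large and the small subunit overlapped. The median log2 difference was -0.08 over 47 large subunit genes, with quartiles of -0.27 and 0.18, and -0.00 over 32 small subunit genes, with quartiles of -0.24 and 0.18. The medians differed by -0.08 (large minus small), with no replicate error to set this against, and the value was 0.05 when the brightest probe stood for each gene. Of the large subunit genes 18 were above 0 and 29 below, and of the small subunit genes 15 were above and 17 below. Each subunit had 1 gene at least 2-fold higher, and the gene ranges overlapped almost wholly, from -0.61 to 1.67 for the large and from -0.59 to 1.43 for the small subunit.

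**Figure D2:**
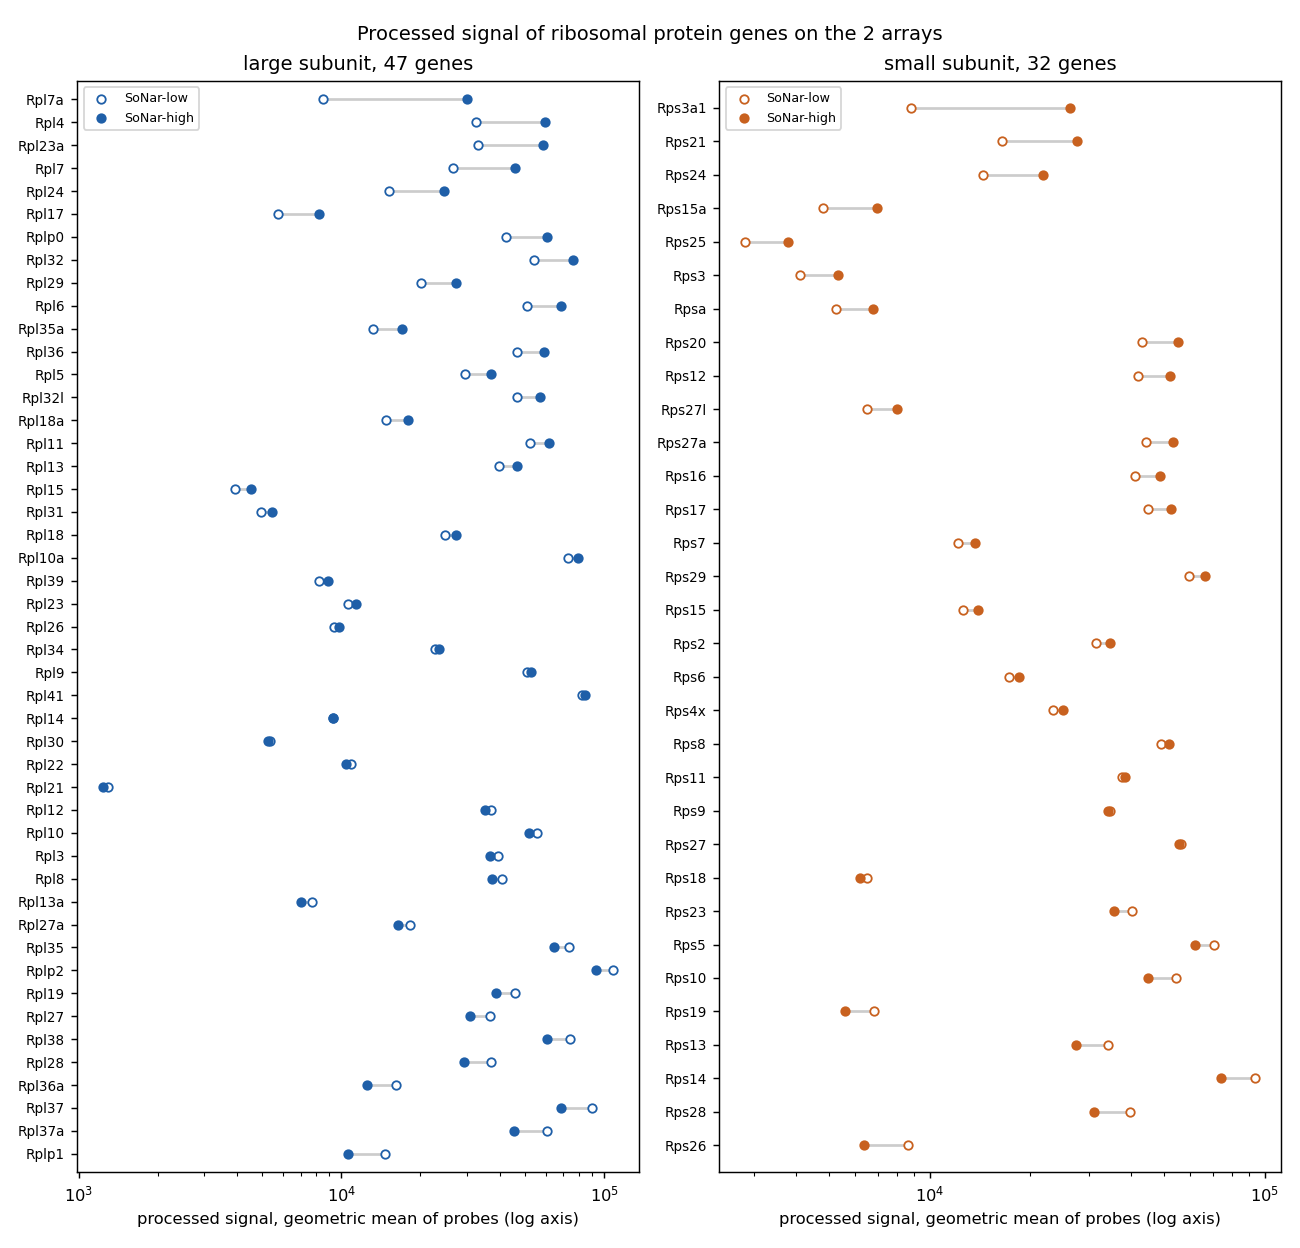
Processed signal (horizontal log axis, geometric mean of a gene's probes) of each measured ribosomal protein gene on the SoNar-high array (filled) and the SoNar-low array (open), before scaling, with large subunit genes on the left and small subunit genes on the right, ordered by log2 difference. The longest lines are those of Rpl7a and Rps3a1, and for most other genes the 2 points nearly touch.

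Rpl7a, an RNA-binding protein of the large subunit, had the highest difference of all members. Its signal was 29980 in SoNar-high and 8514 in SoNar-low, a log2 difference of 1.67 or 3.18-fold, and rank 123 of the 10517 genes. All 4 probes were higher in SoNar-high, but by unlike amounts. The brightest probe read 53763 and 39895, a difference of 0.29, and another read 19888 and 9960, a difference of 0.85. The remaining probes carried the 2-fold call, with 27288 against 4000 and 27685 against 3306, which are differences of 2.63 and 2.92. With the brightest probe alone Rpl7a would therefore not pass 2-fold, and with median scaling, which lowers every gene, it kept 1.06.

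Rps3a1, a small subunit protein near the mRNA exit side that also contacts initiation factors, was the other member past 2-fold. Its signal was 26272 in SoNar-high and 8808 in SoNar-low, a difference of 1.43 or 2.70-fold. Both probes were higher, with 21695 against 5935 (1.72) and 31815 against 13071 (1.14). The call held in the brightest probe and was lost with median scaling (0.82). In mice many ribosomal protein genes have processed copies elsewhere in the genome that are nearly identical in sequence, and whether any of these probes also reads such copies was not tested.

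The start sites of these genes are shown because the TOP motif is the feature that their messages share and that the choice of members did not use. The sequences are RefSeq windows of build GRCm38.p6, from 40 bases before to 20 bases after the annotated start, 5′ to 3′, and capitals mark the longest run of a C followed by at least 4 pyrimidines that overlaps the 10 bases on either side of the start. Shown are the 2 highest and the 2 lowest members of each subunit among 50 measured members with exactly 1 window at hand, a rule set after the values were seen. At the higher end are Rpl7a (chr2:26910767-26910826, + strand), Rpl4 (chr9:64173347-64173406, + strand), Rps3a1 (chr3:86142649-86142708, - strand) and Rps15a (chr7:118116128-118116187, - strand). At the lower end are Rpl37 (chr15:5116573-5116632, + strand), Rpl37a (chr1:72711220-72711279, + strand), Rps28 (chr17:33824543-33824602, - strand) and Rps26 (chr10:128626487-128626546, - strand).
Rpl7a: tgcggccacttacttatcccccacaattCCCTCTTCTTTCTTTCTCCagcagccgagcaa
Rpl4: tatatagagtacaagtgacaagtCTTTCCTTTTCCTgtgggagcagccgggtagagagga
Rps3a1: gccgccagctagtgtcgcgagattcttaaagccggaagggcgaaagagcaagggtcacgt
Rps15a: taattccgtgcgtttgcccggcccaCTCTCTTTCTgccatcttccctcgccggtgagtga
Rpl37: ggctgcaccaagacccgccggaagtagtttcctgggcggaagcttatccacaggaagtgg
Rpl37a: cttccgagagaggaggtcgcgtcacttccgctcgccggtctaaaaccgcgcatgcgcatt
Rps28: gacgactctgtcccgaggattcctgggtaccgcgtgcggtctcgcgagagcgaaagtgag
Rps26: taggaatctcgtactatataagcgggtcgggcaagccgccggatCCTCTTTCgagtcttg

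Of the 8 genes shown 4 held a run, at both ends of the order, and of the 50 genes 31 did. The marked runs of Rpl4 and Rps15a end before the annotated start. In Rps15a a shorter run, not marked, begins exactly at that start. Windows were at hand for 62 of the 82 members, and 39 of these (62.9%) held a C followed by at least 4 pyrimidines that began within 10 bases of the annotated start, against 34.9% of 17492 protein-coding genes. With the run beginning exactly at the annotated start the shares were 22.6% and 2.67%. Members with a run within 10 bases had a median log2 difference of -0.12 over 36 measured genes, and those without it one of -0.00 over 23 genes, with overlapping quartiles (-0.33 to 0.08 and -0.17 to 0.23).

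Other promoter motifs were searched on both strands of the 300-base windows, which run from 250 bases before to 50 after the start, and none of the 4 motifs contains another. CCGGAAG, the ETS and GABP motif, was present in 41.9% of members and 12.9% of all genes, and CCATNTT, a YY1 motif, in 30.6% and 17.3%. CACGTG, the E-box that MYC and MAX bind, was present in 9.68% and 8.91%, and the TATA box letters TATAAA in 11.3% and 14.8%. The shares of the large and small subunit were 39.5% and 45.8% for CCGGAAG and 31.6% and 29.2% for CCATNTT. The median difference of members was -0.05 both with and without CCGGAAG (25 and 34 measured genes). It was -0.21 with CACGTG (6 genes) and -0.03 without (53 genes), and over all protein-coding genes -0.21 and -0.16. With CCATNTT it was -0.18 (18 genes) and without it -0.03 (41 genes), against -0.19 and -0.16 over all. With TATAAA it was -0.04 (7 genes) and without it -0.05 (52 genes). The quartiles of members with and without each motif overlapped. These matches describe letters in a window and not binding.

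When large subunit genes were grouped by role, the 9 of the peptide exit tunnel had the widest range (-0.38 to 0.73). They were also the largest such group, and a range tends to grow with the number of genes. The 4 genes of the acidic stalk and its base ran from -0.61 to 0.38. Rpl4, whose long loop lines the tunnel, had signals of 59364 in SoNar-high and 32402 in SoNar-low, a difference of 0.73 from its 1 probe. Rpl23a, which docks factors at the tunnel exit, had 58697 and 33005, and both its probes gave nearly the same difference (0.67 and 0.70). Rpl17, another tunnel protein, had a difference of 0.38 that averages 5 probes running from -0.71 to 1.17. Rpl19, at -0.38, was the lowest of the 9 tunnel genes, and their median was -0.04, so the high values of Rpl4 and Rpl23a were not shared by the tunnel group.

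Rpl7, another protein of the large subunit, had signals of 45785 and 26671, a difference of 0.63. Its 4 probes fell into a pair near 0 (-0.10 and 0.24) and a pair above 2-fold (1.08 and 1.31). Rpl24, which bridges the subunits, showed the same kind of split, with 26716 against 30151 (-0.32) for one probe and 22721 against 7677 (1.42) for the other. For both genes the brighter signal in SoNar-high rested on part of the probes.

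The acidic stalk recruits elongation factors to the large subunit and consists of Rplp0 with pairs of Rplp1 and Rplp2. Rplp0, the anchor, had signals of 60737 in SoNar-high and 42323 in SoNar-low (0.38), with 3 probes from -0.19 to 0.79. Rplp1 had 10595 and 14618 (-0.61), the lowest difference of all members, and Rplp2 had 92885 and 108298 (-0.37), each from 1 probe. The anchor lay above 0 and its partners below it in this scaling, but Rplp0 was at -0.19 by its brightest probe and at -0.24 with median scaling, below 0 like its partners. Rpl12, at the stalk's base, was at -0.22.

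Rpl5 and Rpl11 carry the 5S ribosomal RNA and, when free of the ribosome, restrain MDM2 and so stabilise p53. Rpl5 had signals of 37103 and 29561, a difference of 0.18. Rpl11 had 61745 and 52206, a difference of 0.10, but 2 of its 3 probes gave -0.29 and the third 0.87. The value of Rpl5 is from 1 probe and close to the SD of repeat spots, and that of Rpl11 lies within the spread of its probes. Rpl3, Rpl8 and Rpl10, which surround the peptidyl transferase centre, lay together at -0.25, -0.26 and -0.24.

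After Rplp1, the lowest large subunit genes were Rpl37a, Rpl37, Rpl36a, Rpl28 and Rpl38. Rpl37a had signals of 45564 in SoNar-high and 60580 in SoNar-low (-0.56), Rpl37 had 68535 and 89511 (-0.53), and Rpl36a had 12505 and 16191 (-0.52). Rpl28 was at -0.48, and Rpl38, known for its part in translating Hox messages in the mouse embryo, at -0.44. All 3 probes of Rpl36a (-0.99 to -0.11) and both of Rpl38 (-0.65 and -0.22) were below 0, and Rpl37, Rpl37a and Rpl28 had 1 probe each. None of these genes reached 2-fold.

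**Figure D3:**
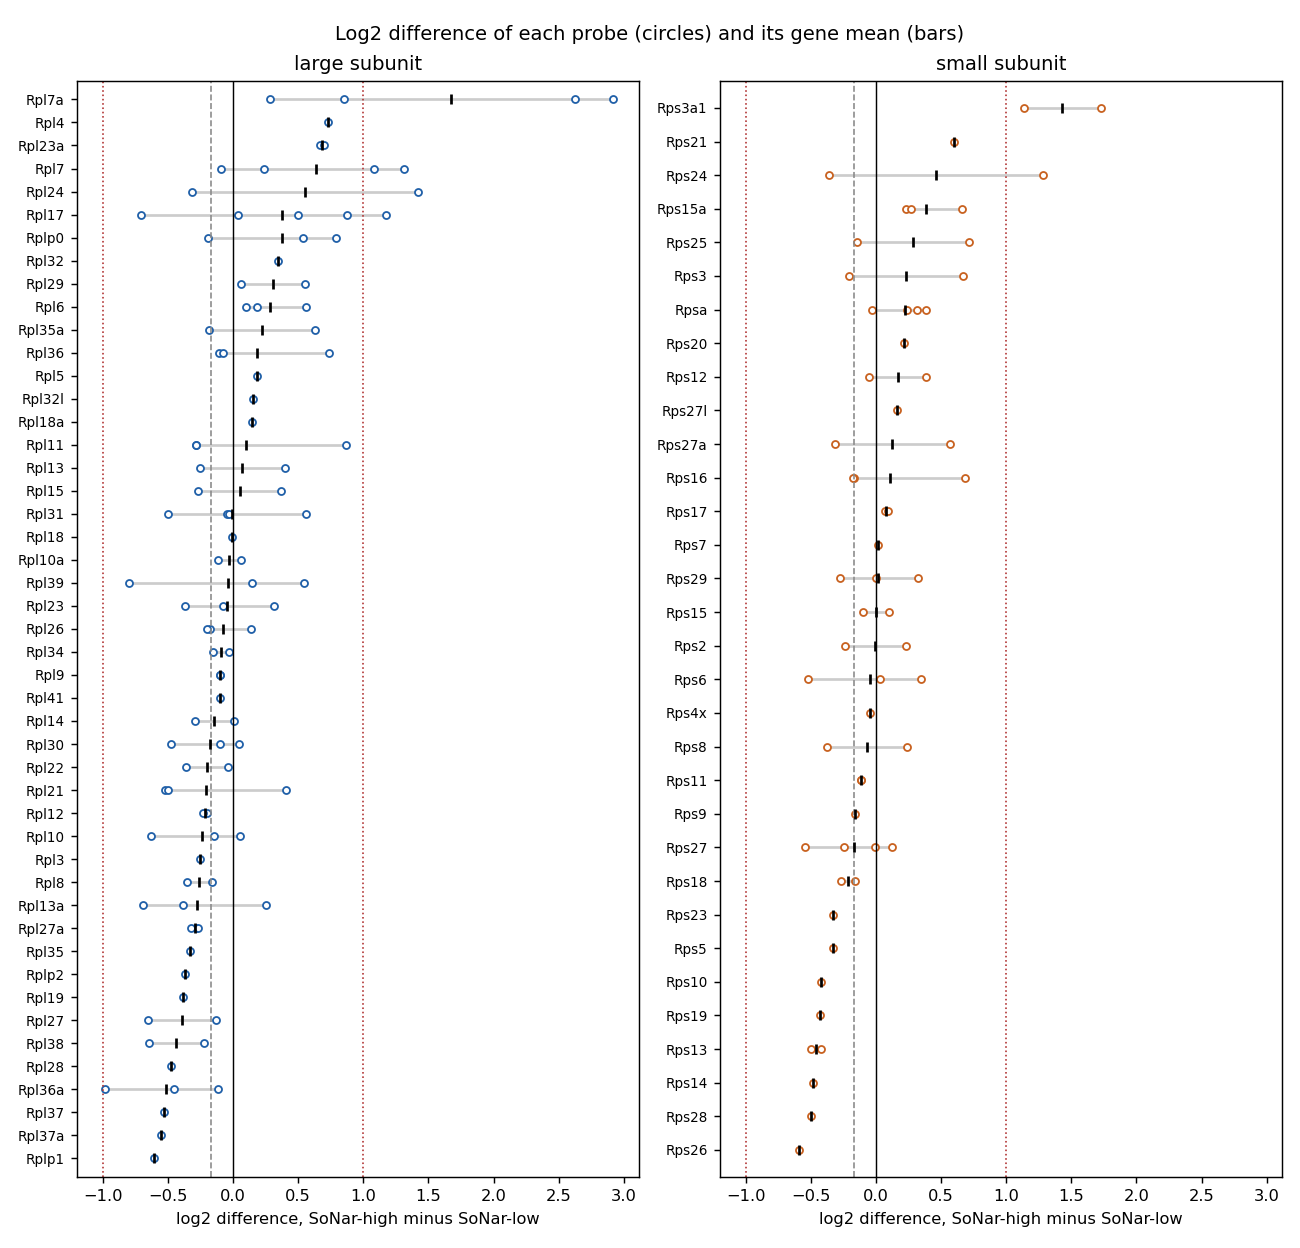
The log2 difference, SoNar-high minus SoNar-low (horizontal axis), is shown for each probe (circles) and as the mean of each gene (black bars), with grey lines from the lowest to the highest probe of a gene. The dashed line marks the median of all genes (-0.17) and the dotted lines mark 2-fold. Probes of Rpl7a, Rpl24, Rpl17, Rps24, Rpl7 and Rps3a1 lie beyond the upper 2-fold line and none beyond the lower.

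In the small subunit the highest genes after Rps3a1 were Rps21 and Rps24. Rps21 had signals of 27584 in SoNar-high and 16446 in SoNar-low, a difference of 0.60 from 1 probe. Rps24, a Diamond-Blackfan anaemia gene, had 21882 and 14412 (0.46), where one probe read 7433 against 2769 (1.28) and the other 64421 against 75002 (-0.36). Rps15a (0.38), Rps25 (0.28) and Rps3 (0.23), a protein of the mRNA entry channel that also serves DNA repair, followed. All 3 probes of Rps15a were above 0, while the probes of Rps25 and Rps3 differed in sign.

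At the low end of the small subunit, Rps26, which touches the message upstream of the start codon, had signals of 6353 and 8637 (-0.59). Rps28, also at the mRNA exit, had 30896 and 39518 (-0.50), and Rps14, on the platform, had 74333 and 93788 (-0.48). Rps13 (-0.46), Rps19 (-0.43) and Rps10 (-0.43) came next. Each of these rests on 1 probe except Rps13, whose 2 probes gave -0.50 and -0.43. The 6 genes grouped at mRNA entry, decoding and exit had a median of -0.41, with 5 below 0 and Rps3 above. Rps3a1 (1.43), which also lies near the exit side, was not in this group. The median therefore depends on which genes were grouped.

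Single members of known function lay between these ends. Rps6, the target of the S6 kinases downstream of mTORC1, had signals of 18534 and 17315 (-0.05), with 3 probes from -0.52 to 0.35. Rpsa, which is also known as the laminin receptor, had 6771 and 5240 (0.22), with 4 probes from -0.03 to 0.38. Rps27a, which is made as a fusion with ubiquitin, had 53453 and 44318 (0.13), from probes at -0.32 and 0.57. Rps19, the gene most often mutated in Diamond-Blackfan anaemia, had 5613 and 6848 (-0.43). Over 18 genes known from that disease the median was -0.01, with 8 above 0 and 10 below, and 0 reached 2-fold.

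Of the members that are copies of other ribosomal protein genes, 3 gave no difference. Rpl3l, best known from muscle, read 14.6 in SoNar-high and 9.78 in SoNar-low, and Rpl39l, best known from testis, read 4.10 and 9.99. Neither gene had a probe that stood well above background in either sample. Rpl10l, also of testis, was detected in SoNar-high alone, in 1 of its 2 probes (41.6 there and 38.0 in SoNar-low). That signal lies under 46.4, the lowest one called detected on the SoNar-low array, so no fold is given. Rps27l, a p53-responsive relative of Rps27, was measured on both with 8022 and 6491 (0.16), and Rpl32l with 57222 and 46581 (0.15). The value of Rpl32l is from 1 probe, and Rpl32 itself had 76068 and 54060 (0.35). Whether the Rpl32l probe also reads the message of Rpl32 was not tested.

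Several probes of a gene often disagreed, which adds to the error of these values. Of 51 members with at least 2 probes, 32 had probes on both sides of 0, 7 had all probes above and 12 all below. Among all 2394 genes with at least 2 probes, 1171 had probes on both sides of 0. The probes of a member spanned a median of 0.60, against 0.47 over those 2394 genes. In 8 members (15.7%) they spanned at least 1, against 16.7% of the 2394 genes. The pooled SD between probes of a member was 0.52, against 0.53 for all genes. Over all 160 member probes the SD was 0.56. Between members, whose values mostly average several probes, it was 0.41. A repeated probe of Rpl23 shows the smaller error of spots: its 10 spots ran from 735 to 834 in SoNar-high and from 789 to 1109 in SoNar-low, with log2 differences from -0.56 to -0.16 (SD 0.13). At the probe level, 9 of 160 (5.63%) were at least 2-fold higher, from 6 genes, against 7.45% of all probes, and 0 were at least 2-fold lower, against 1.71%.

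The number of probes moved with the result. The 28 members with 1 probe had a median of -0.29 and the 51 with more probes one of -0.01, and 13 of 28 against 38 of 51 lay above the median of all genes. With the brightest probe per gene the median of all members was -0.14. Another 4 spots of members (2 of Rpl17, 1 each of Rpl13 and Rps24) carried an outlier mark on the SoNar-high array and were left out, and all 4 were higher there. With them Rpl17 had a difference of 0.89 in place of 0.38.

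Relatives that the symbol rule leaves out had a median of -0.08 over 6 measured genes. Fau (-0.17), which encodes a ribosomal protein fused to a ubiquitin-like protein, and Rack1 (-0.03), the scaffold on the small subunit, are parts of the ribosome under other names. Rpl36al, a copy of Rpl36a, had signals of 18680 and 8980 (0.91), while Rpl36a itself was at -0.52. Rpl22l1, the relative that substitutes for Rpl22, had 1088 and 1534 (-0.64), and Rpl22 was at -0.20. Rpl7l1, a nucleolar relative of Rpl7, was at 0.14. Of these 6 genes 0 reached 2-fold.

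Other genes of ribosome supply and use were compared through fixed lists. Of 21 measured TOP mRNA genes, mostly translation factors, 0 reached 2-fold and the median was -0.18. Eef1a1, the factor that brings aminoacyl-tRNA to the ribosome, was highest at 0.96 (60916 and 28351, 2 probes at 0.85 and 1.07), followed by Naca at 0.53, and Vim (-0.45) and Eif3l (-0.45) were lowest. Chaperones of ribosomal proteins and late subunit maturation factors had a median of -0.36 over 28 genes, with 2 at least 2-fold higher and 0 lower, where 4.87% and 1.68% of all genes were. Nmd3, the adaptor that exports the large subunit, had 3326 and 911 (1.72), and Heatr3, which delivers Rpl5 to the nucleus, had 6427 and 2857 (1.02), each from 1 probe. Zfp622 (-0.80) and Ltv1 (-0.76), which act late on the large and small subunit, were lowest.

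The kinases and binding proteins that act on TOP messages had a median of -0.20 over 12 genes. Pdcd4, an inhibitor of translation initiation that S6 kinase marks for destruction, was the 1 gene of 12 past 2-fold. It had 4097 and 1275 (1.54), where 4.87% of all genes were at least 2-fold higher. Mtor was at 0.63. Larp1, which binds the TOP motif, was lowest with 4892 and 7313 (-0.73, both probes below -0.7), and Eif4e was at -0.55. Mitochondrial ribosomal proteins had a median of -0.25 over 77 genes. There 2 genes, Mrpl1 (1.19) and Mrps5 (1.17), were at least 2-fold higher and 0 lower, where 4.87% and 1.68% of all genes were. Mrps16 (-0.94) and Mrps6 (-0.75) were lowest. Of the 77 genes 23 lay above 0, where 33 of 79 cytosolic members and 3871 of all 10517 genes did.

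**Figure D4:**
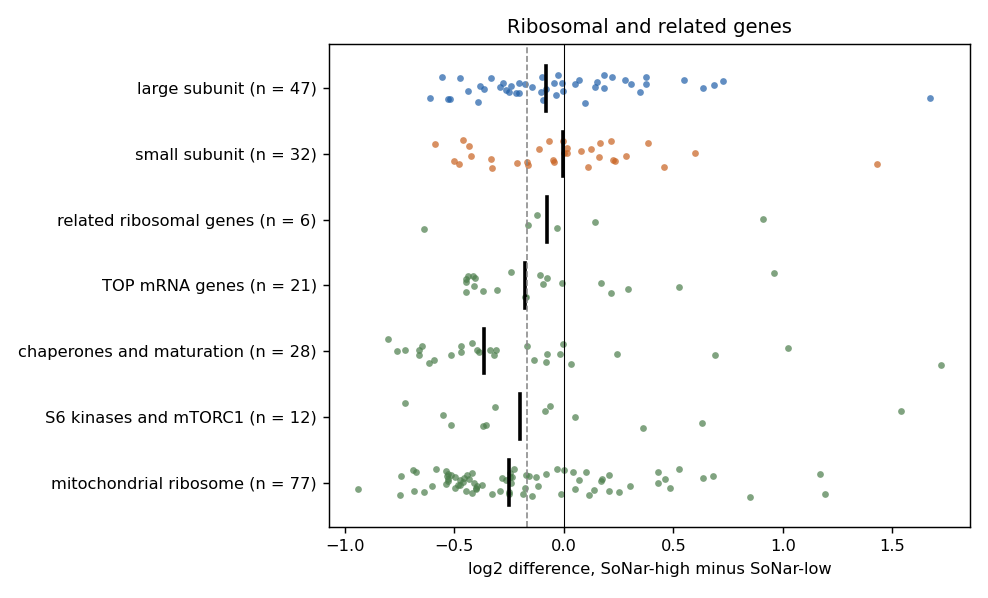
Each point is a gene at its log2 difference, SoNar-high minus SoNar-low (horizontal axis), in the large and small subunit and in 5 related lists, with black bars at the list medians and the vertical position of points within a list without meaning. The dashed line is the median of all genes (-0.17), and the bars run from -0.36 for chaperones and maturation to -0.00 for the small subunit.

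The processing moved all genes together more than it moved the subunits apart. With median scaling 1 of 79 members was at least 2-fold higher (Rpl7a) and 13 were at least 2-fold lower. Of all 10517 genes 139 were higher and 3306 lower by that measure. The members' median was 0.04 with quantile normalization, 0.16 with cyclic loess and 0.02 from the authors' deposited values. The members' median lay above that of all genes by 0.12, and this margin was -0.051 without a filter on dim probes and -0.18 when detection on 1 array was enough. Under these settings the median of all genes was 0.01 and 0.14, while that of the members was -0.04 and -0.03.

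**Figure D5:**
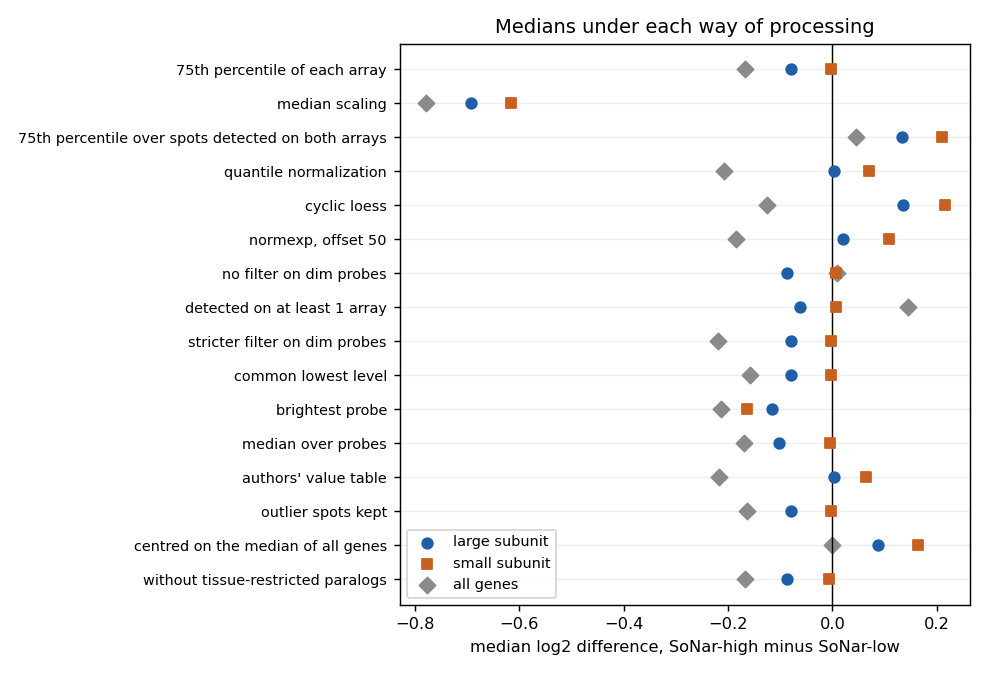
Median log2 difference, SoNar-high minus SoNar-low (horizontal axis), of the large subunit, the small subunit and all genes under each way of processing (vertical axis). The subunit medians differ by at most 0.10 in each, while median scaling takes all 3 medians below -0.6.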

How the data were processed

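Total RNA of SoNar-high and SoNar-low cells was measured on 1 Agilent array per group. Per the file headers, the scanner output is spot intensity after background subtraction and detrending by Feature Extraction 11.0.1.1, and the submitters' processing notes give 9.1 as the version. The array annotation is of mm9 and the RefSeq tables used for names and start sequences are of GRCm38.p6. The authors' deposited values are on a log2 scale with a median of 5.90 per column, their making not given in the sources, and served as an alternative.

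Control spots and 685 spots marked as outliers were left out, log2 of the processed signal was set to each array's 75th percentile, and spots of a probe were averaged. A probe counted as detected if the majority of its spots lay well above background, and a gene was the mean of its probes detected on both arrays. Signals quoted for a gene are geometric means over those probes. No p-value was computed. Named were 10 fixed members, the 6 highest and 6 lowest of each subunit, all past 2-fold or not measured on both arrays, the 3 widest in probes, the relatives outside the rule and the extremes of each list (some genes are not reported here); others are named by role. Members, lists and role groups were chosen with earlier results of these data known. The functions were tested on simulated data. Of 15 alternatives 13 were planned and 2, centring on the median and leaving out tissue-restricted copies, were added after seeing the data. Normexp used the median spot signal. Python 3.11.15, numpy 2.4.6, pandas 2.3.3, R 4.3.3 and limma 3.58.1 were used.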

Additional observations from a re-analysis of the deposited data

Results flagged for a closer look

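A probe for the pseudogene Rps15a-ps6, which takes part in no comparison, was well above background on both arrays. It read 517 in SoNar-high and 305 in SoNar-low (processed signal), a log2 difference of 0.62, where the upper end of the middle 95% of negative control spots was 3.08 and 5.35. Rps15a, its parent gene, was abundant on both arrays, and whether the probe also reads the parent's message was not tested.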

How the results depend on the processing

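No paired analysis was possible because 1 array stood for either group, and none could be left out. The median of all members, of the large and of the small subunit was -0.05, -0.08 and -0.00. It was -0.66, -0.69 and -0.62 with median scaling, 0.17, 0.13 and 0.21 when spots detected on both arrays set the percentile, 0.16, 0.14 and 0.22 with cyclic loess, and 0.12, 0.087 and 0.16 after centring on the median of all genes. The small subunit median was -0.16 with the brightest probe. The margin of members over all genes, 0.12, was 0.29 with cyclic loess, -0.051 without a filter on dim probes and -0.18 with detection on at least 1 array. Against 2 members at least 2-fold higher there was 1 with median scaling and 1 with the brightest probe. Against 0 lower there were 13 with median scaling and 1, Rpl39l, which is not above background, without a filter. Without the copies Rpl3l, Rpl10l, Rpl39l, Rpl32l and Rps27l, 0 members, in place of 1, had a detected probe in SoNar-high only. Shifts of all genes alike follow from the scaling itself, and for cyclic loess and the brightest probe the cause was not tested. The other 114 values moved by less than the spread of repeat spots or, for counts, by under 1.5 times. All genes at least 2-fold higher and lower numbered 512 and 177 and with median scaling 139 and 3306, so that 74.3% and 4.03% of those past 2-fold were higher. The lowest detected signal, 19.7 on the SoNar-high and 46.4 on the SoNar-low array, limits only Rpl3l, Rpl10l and Rpl39l among the members.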

Other observations

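S6 kinase genes, which the choice of members leaves out, gave values as mixed as their probes. Rps6kb1, the main S6 kinase, had a difference of -0.06, but of its 3 measured probes one read 833 and 352 (SoNar-high first), past 2-fold, and the others gave -0.47 (309 and 387) and -0.83 (3306 and 5299). Rps6kl1, a little studied relative, was at -1.02 (107 and 196). Rps6ka1, a kinase of the RSK branch, was at -0.37, Rps6ka4 at 0.06 and Rps6ka5 at -0.24. Rps23rg1, a gene that arose as a copy of Rps23 and serves another function, was at 1.35 (654 and 232), while Rps23 itself was at -0.33. These genes were picked after their values were seen.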
